A study of Mus musculus with 49 samples.

Results

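Herbimycin A was tested on polyclonal fraction E cells, immature B cells that had not been given an Ig transgene, in 10 of the 49 samples of the series (and of its 37 U74Av2 arrays), chosen by their labels. B220+IgM+IgD- cells were sorted from the bone marrow of mice that carry a bcl-2 transgene, and then kept in herbimycin A (FxE HA, 6 arrays) or in medium alone (FxE Ctrl, 4 arrays). All 10 samples therefore carried the bcl-2 transgene, which per the study's text is restricted to B cells and was chosen because immature B cells are prone to apoptosis. The labels give 1 to 2 d of culture, and a figure legend of the study assigns 48 h to FxE HA 5 and 6 and FxE Ctrl 3 and 4, and 24 h to FxE HA 1 to 4 and FxE Ctrl 1 and 2. The methods give 4 to 8 weeks as the general age of the mice of the study. The dose for these cells, the strain and whether the control medium held the carrier are not given in the sources used here. The methods state fewer sorts for such groups than either has arrays, so some arrays may share a sort, and the p-values below measure only the spread between these arrays, which may be technical.

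Fraction E is the stage at which a B cell first carries a complete IgM receptor. Fraction D, the small pre-B cell, precedes it and still expresses the recombinase genes Rag1 and Rag2 that assemble Ig light chains. Herbimycin A is a benzoquinone ansamycin antibiotic that has long been used to inhibit tyrosine kinases, among them the Src family kinases that act next to the B cell receptor. Ansamycins also bind the chaperone HSP90, and cells are known to answer HSP90 inhibitors by transcribing heat shock genes through the factor HSF1. The comparison asked whether normal immature B cells change their expression program when kinase signaling is blocked, and it was set beside the same inhibitor in cultured HEL-Ig cells, deletion of the receptor, and the natural fraction D to fraction E step.

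The promoters of 4 genes that changed are printed because they carry the sequence elements best known for the heat shock genes, the largest group that rose, and the MHC class II genes, which fell farthest. They are the 250 bases before the gene start in RefSeq annotation of GRCm38.p6, read 5′ to 3′ on the gene's strand, at chr1:55087898-55088147 (Hspe1, plus strand), chr17:34972157-34972406 (Hspa1a, minus strand), chr17:34305617-34305866 (H2-Eb1, plus strand) and chr17:34287824-34288073 (H2-Aa, minus strand). Capitals mark the motif GAANNTTC, a pair of inverted heat shock units, in the chaperone promoters, and the motif CTGATTGG, an inverted CCAAT box as in the Y box of class II promoters, in the others.
Hspe1: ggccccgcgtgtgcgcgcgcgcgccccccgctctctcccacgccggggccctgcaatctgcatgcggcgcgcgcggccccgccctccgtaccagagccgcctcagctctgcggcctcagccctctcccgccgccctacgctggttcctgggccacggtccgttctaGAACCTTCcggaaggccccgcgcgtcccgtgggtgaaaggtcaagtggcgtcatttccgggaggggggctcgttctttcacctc
Hspa1a: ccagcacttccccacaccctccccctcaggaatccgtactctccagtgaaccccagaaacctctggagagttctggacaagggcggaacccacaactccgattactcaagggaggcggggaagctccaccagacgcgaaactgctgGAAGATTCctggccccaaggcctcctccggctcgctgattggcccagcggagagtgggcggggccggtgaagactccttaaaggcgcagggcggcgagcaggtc
H2-Eb1: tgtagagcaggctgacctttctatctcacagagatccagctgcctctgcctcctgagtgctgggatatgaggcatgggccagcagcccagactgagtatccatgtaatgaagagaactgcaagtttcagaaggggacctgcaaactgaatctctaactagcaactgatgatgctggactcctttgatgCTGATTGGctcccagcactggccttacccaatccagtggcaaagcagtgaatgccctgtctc
H2-Aa: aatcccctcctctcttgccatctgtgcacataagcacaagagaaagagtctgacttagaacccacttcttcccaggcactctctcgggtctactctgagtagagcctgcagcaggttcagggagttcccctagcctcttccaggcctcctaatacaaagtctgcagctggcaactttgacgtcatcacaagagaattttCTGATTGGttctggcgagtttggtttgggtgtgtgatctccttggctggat
The matches begin 84 bases (Hspe1), 104 bases (Hspa1a), 62 bases (H2-Eb1) and 51 bases (H2-Aa) before the gene start. Searched on both strands in windows of 300 bases around the start, GAANNTTC was present in 7.86% of 32851 promoter windows and in 7.29% of the 5916 genes on the array that have a window. It was present in 16 of 81 genes that rose in FxE HA (19.8%) and in 12 of 132 genes that fell (9.09%). Among heat shock genes it was present in 8 of 11 that rose and 3 of 7 that did not pass. CTGATTGG, a motif added after the values were seen, was present in 4.1% of windows, in 6.34% of genes on the array, in 3 of 7 class II genes (H2-Aa, H2-Eb1 and H2-Oa), in 11.1% of genes that rose and in 11.4% of genes that fell. GTAAACA, the core bound by FoxO factors, was present in 3.65% of windows, in 4 of 81 genes that rose, in 7 of 132 that fell and in 3 of 15 FoxO target genes. The Hspa1a promoter printed above holds CTGATTGG as well. These matches describe letters in a window and not bound sites.

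Values are array signals in arbitrary units on a linear scale, raised to 20 where lower, and differences are log2 signal differences from a fit with arm and hours as terms, each given ± its standard error. A probe set or gene was called, and is said to have risen or fallen, at a Benjamini-Hochberg adjusted p under 0.05 by limma over all 9977 probe sets. FxE HA and FxE Ctrl differed at 336 probe sets, of which 118 were higher in FxE HA (1.18%) and 218 were lower (2.19%). Taken by gene, each shown by its brightest probe set, 96 of 7417 rose (1.29%) and 175 fell (2.36%). These arrays measured bulk RNA, so fewer cells that express a gene and less RNA per cell cannot be told apart. Of the called probe sets 81.2% differed by at least 2-fold. In 295 of the 336 the signals of the arms did not overlap, against 583 of all probe sets (5.84%). All 336 had the same sign at 48 h and at 24 h, but they were called over both times on these same arrays, which favors equal signs. The median difference over all probe sets was 0.07. Leaving out FxE Ctrl 1 or FxE Ctrl 2, the 24 h control arrays, left 193 and 186 calls, and the 24 h arrays alone gave 104. Of 87 called genes of the gene lists below or of the rule for naming genes, 54 kept their call without each array in turn, and those that did not were Adk, Aurkb, Bcl3, Bcl6, Btg1, Btk, Cad, Cd22, Cd93, Cebpb, Chordc1, Ciita, Dnaja1, Fcer2a, Fcgr2b, Gclc, H2-Ob, Hspd1, Ier2, Il7r, Mx1, Nfkbia, Pfkp, Prkcd, Prkdc, Psmb9, Ptprc, St13, Stip1, Tpi1, Traf6, Vav1 and Zfp36.

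Median signals of the 10 arrays were 345.9 to 506.3, and 1.48% to 6.86% of values lay at the floor. Array medians of FxE HA 5 (506.3) and FxE Ctrl 3 (490.9) were the highest. Pairwise correlations of log2 signals were 0.91 to 0.946 within FxE HA, 0.921 to 0.95 within FxE Ctrl and 0.901 to 0.941 between the arms. The sort label was checked against cell type markers. The B cell genes Cd79a (8273 to 30042 in FxE HA, 6489 to 29568 in FxE Ctrl) and Pax5 (1548 to 3178 and 1286 to 3956) were present on all arrays. B cell markers were not equal between arms. Of 10 measured 5 fell in FxE HA, against 2.36% of all genes, and none rose (median difference -0.78). Ptprc, which encodes the sort marker B220, was among those that fell (-1.13 ± 0.20, adjusted p = 0.0154), a call lost without FxE Ctrl 2 or FxE Ctrl 4. Summed signals of 9 T cell markers were 921 to 3177 in FxE HA and 1386 to 2649 in FxE Ctrl. Neutrophil genes were not near 0, and 14 myeloid markers summed to 30212 to 140392 in FxE HA and 31240 to 133882 in FxE Ctrl, with none called between arms (median difference -0.13). Ngp, a neutrophil granule gene, had 273 and 5372 on the 48 h and 24014, 19080, 13724 and 24075 on the 24 h FxE HA arrays, against 3588 and 15077 on the 48 h and 19388 and 24656 on the 24 h FxE Ctrl arrays, so FxE HA 5 and FxE Ctrl 3 were the lowest of their arms. Without those arrays 247 probe sets were called.

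Genes of MHC class II antigen presentation fell together and farthest. All 11 measured genes of the list fell in FxE HA, with a median difference of -3.70, against 0.06 for all genes shown. Their summed signal was 9536 to 28663 in FxE HA and 298705 to 393749 in FxE Ctrl. H2-Eb1, the beta chain of I-E, had signals of 1027 to 1560.2 with a median of 1212 in FxE HA, against 61154, 61684, 58748 and 57289 in FxE Ctrl. Every treated array was far below every control array, and the difference was -5.60 ± 0.17, adjusted p = 6.18e-07, 48.4-fold lower. H2-Ea, the I-E alpha chain, had 615 to 1138 with a median of 889.8 in FxE HA, against 64523, 58494, 76353 and 53559 in FxE Ctrl, the largest fall of any gene shown (-6.24 ± 0.23, adjusted p = 1.49e-06, 75.6-fold lower). H2-Aa, the I-A alpha chain, was also 65.7-fold lower (-6.04 ± 0.59, adjusted p = 8.20e-04), and its treated arrays ran from 213 to 3690.3 with a median of 2592, against 113770.5, 112393, 94957 and 81778 in FxE Ctrl. FxE HA 5 was the lowest of these and the other treated arrays lay close together. The I-A beta chain H2-Ab1 had 1043 to 2345 in FxE HA and 19235 to 25716 in FxE Ctrl (-3.92 ± 0.29, adjusted p = 1.60e-04).

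The genes that load peptide onto class II molecules fell as well. Cd74, the invariant chain that escorts class II through the cell, had 2335 and 3601 on the 48 h and 13932, 8664, 7701 and 10480.3 on the 24 h FxE HA arrays, against 53847 and 56979 on the 48 h and 86449.5 and 93726 on the 24 h FxE Ctrl arrays. It was 12.5-fold lower in FxE HA (-3.64 ± 0.28, adjusted p = 2.07e-04) and in addition lower at 48 h than at 24 h (-1.31 ± 0.28, adjusted p = 0.0367), a call for time lost without any one array. H2-DMa, a subunit of the H2-DM molecule that removes the invariant chain peptide, had 1095 to 2141 in FxE HA and 17810.1 to 24920.3 in FxE Ctrl (-3.70 ± 0.17, adjusted p = 7.15e-06). Its partners H2-DMb1 (-4.45 ± 0.49, adjusted p = 0.00158) and H2-DMb2 (-2.53 ± 0.43, adjusted p = 0.0126) are near-identical copies whose signals may be shared, and H2-DMb2 was the only one of the 11 genes whose arms overlapped. H2-Oa and H2-Ob, the subunits of the H2-DM inhibitor, fell by less (-2.33 ± 0.20, adjusted p = 3.88e-04, and -1.20 ± 0.22, adjusted p = 0.0175), and the call of H2-Ob was lost without FxE HA 6, FxE Ctrl 3 or FxE Ctrl 4. Ciita, the transactivator that class II genes require, had the smallest fall of the list, with 369 to 516 with a median of 429 in FxE HA against 981, 1155, 759.6 and 633 in FxE Ctrl (-1.06 ± 0.18, adjusted p = 0.0116), and its call was lost without FxE Ctrl 1 or FxE Ctrl 2. With each array left out in turn, 10 or 11 of the 11 genes were called, and 8 were with the 24 h arrays alone.

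**Figure D1:**
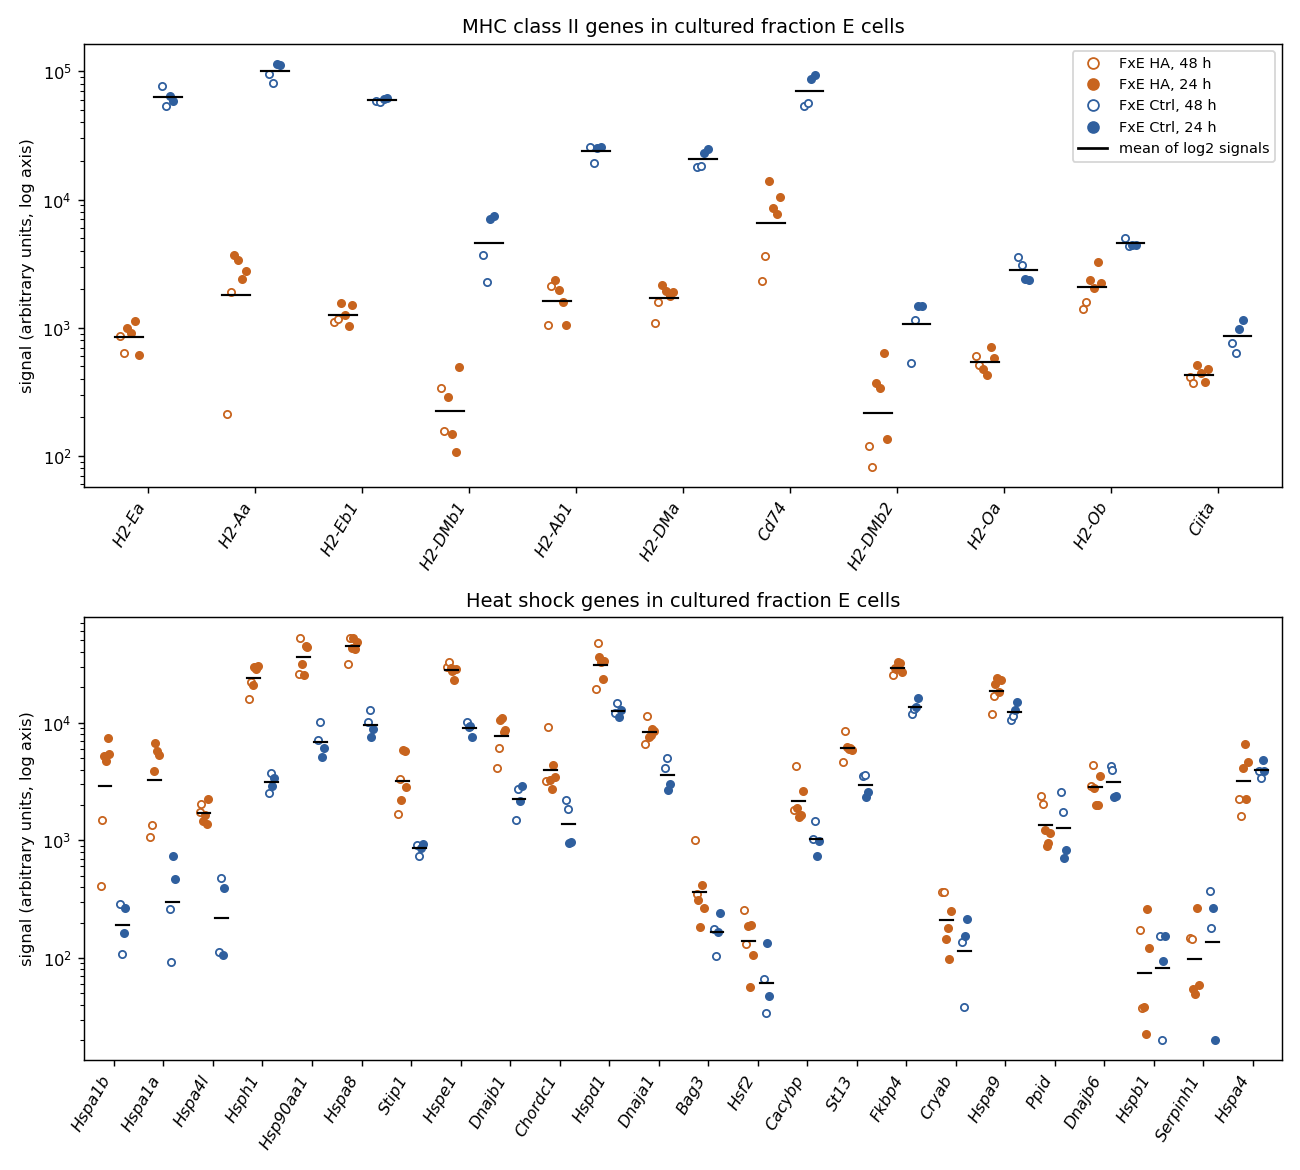
Signals of the 11 MHC class II genes (top) and 24 heat shock genes (bottom) measured, on a log axis in arbitrary units, with 1 point per array, FxE HA (orange) left of FxE Ctrl (blue), open points at 48 h and filled at 24 h, and bars at the mean of log2 signals. Treated arrays of H2-Eb1 lay at 1027 to 1560.2, far under the control arrays at 57289 to 61684, and treated arrays of Hsph1 lay at 15746 to 30026, above the control arrays at 2534 to 3739.

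Heat shock genes were the largest group that rose, with 14 of 24 measured members higher, none lower and a median difference of 1.23. Of all genes 1.29% rose. The genes for the inducible HSP70 proteins led. Hspa1a had 1065 and 1362 on the 48 h and 3859.5, 6679, 5742 and 5298 on the 24 h FxE HA arrays, against 259.5 and 93.1 on the 48 h and 731 and 473 on the 24 h FxE Ctrl arrays. The arms did not overlap, and the gene was 8.44-fold higher in FxE HA (3.08 ± 0.31, adjusted p = 9.18e-04) and lower at 48 h (-2.04 ± 0.31, adjusted p = 0.0147). The call for time was lost without FxE HA 6. Its near-identical neighbor Hspa1b was 12.4-fold higher (3.63 ± 0.59, adjusted p = 0.00963), and the split of signal between the pair is uncertain. Hsph1, an HSP110 exchange factor for HSP70, had 15746 to 30026 with a median of 25299 in FxE HA, against 2916, 3407, 2534 and 3739 in FxE Ctrl, 7.38-fold higher (2.88 ± 0.22, adjusted p = 2.02e-04). Hspa4l, of the same family, was 8.09-fold higher (3.02 ± 0.46, adjusted p = 0.00739). The constitutive HSP70 gene Hspa8 rose 4.67-fold (2.22 ± 0.22, adjusted p = 8.56e-04), with 31675 to 52852 in FxE HA and 7575 to 12702 in FxE Ctrl. Hsp90aa1, the inducible gene of HSP90 itself, had 25602 to 52603 with a median of 37682 in FxE HA, against 5116, 6123, 7183 and 10137 in FxE Ctrl (2.43 ± 0.28, adjusted p = 0.00205).

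The mitochondrial chaperonin pair was among the risen genes. Hspe1 had 23250.2 to 32502 with a median of 28912 in FxE HA, against 9462, 7541, 10141 and 9142 in FxE Ctrl, 3.2-fold higher (1.68 ± 0.16, adjusted p = 6.67e-04) and equal in size at 48 h (1.69) and 24 h (1.68). Hspd1, transcribed from the same promoter region in the opposite direction, was 2.45-fold higher (1.29 ± 0.26, adjusted p = 0.0305), a call that was lost when any of 8 arrays was left out. The cochaperones Dnajb1 (1.67), Stip1 (1.84), Chordc1 (1.67) and Dnaja1 (1.27) rose too, and the last 3 of these calls were lost without FxE Ctrl 1 or FxE Ctrl 2. The small heat shock genes were dim and did not pass, Hspb1 with 22.7 to 261 in FxE HA and 20 to 155 in FxE Ctrl, and Cryab with 97.6 to 366 in FxE HA and 38.5 to 214 in FxE Ctrl. Leaving out FxE Ctrl 1 or FxE Ctrl 2 left 9 called heat shock genes, and the 24 h arrays alone gave 10. None of 14 endoplasmic reticulum stress genes, 6 p53 targets or 8 Bcl2 family genes was called, and 1 of 8 oxidative stress genes rose, namely Gclc, which makes glutathione (0.72 ± 0.16, adjusted p = 0.0469), a call lost without any one array.

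Surface and transcriptional markers of more mature B cells fell. Of 17 measured genes of the list 11 fell, against 2.36% of all genes, and none rose, with a median difference of -1.48. Cd83, a surface marker of activated B cells, had 72.5 to 332 with a median of 230.4 in FxE HA, against 5732, 8089, 8172 and 7545 in FxE Ctrl, and the arms were far apart (-5.19 ± 0.43, adjusted p = 3.20e-04, 36.5-fold lower). A second, much dimmer probe set of Cd83 did not pass (0.19). Cd72, an inhibitory partner of the B cell receptor, had 1397 and 1211 on the 48 h and 612, 531, 538 and 723 on the 24 h FxE HA arrays, against 16110.1 and 12591 on the 48 h and 10519.6 and 8833 on the 24 h FxE Ctrl arrays. It was 13.7-fold lower in FxE HA (-3.77 ± 0.20, adjusted p = 1.44e-05) while being higher at 48 h (0.88 ± 0.20, adjusted p = 0.0419), a call for time lost without any one array. Cd40, the receptor for T cell help, had 492 to 952 with a median of 854 in FxE HA, against 6085, 5221, 8062 and 6291 in FxE Ctrl (-2.94 ± 0.21, adjusted p = 1.35e-04, 7.69-fold lower). Ltb, which encodes lymphotoxin beta, was 4.58-fold lower (-2.20 ± 0.24, adjusted p = 0.00154).

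Other genes of this group fell by smaller amounts. Ms4a1, which encodes CD20, had 16493 to 22494 with a median of 19312 in FxE HA, against 50929, 52570.1, 55957 and 48264 in FxE Ctrl, 2.68-fold lower (-1.42 ± 0.17, adjusted p = 0.00216), and its second probe set fell by 2.85 on the log2 scale. Cd22 (-1.48 ± 0.28, adjusted p = 0.0217), an inhibitory sialic acid receptor, and Fcer2a (-2.80 ± 0.61, adjusted p = 0.0404), which encodes CD23, also fell, with calls that were lost without several single arrays. Spib, an Ets family transcription factor of B cells, had 1085 to 5529 with a median of 3995 in FxE HA, against 16152, 13996, 14882 and 10918 in FxE Ctrl (-2.14 ± 0.36, adjusted p = 0.0114). It was the only one of 10 B lineage identity genes to fall, and the list's median was -0.05: Pax5 (-0.03), Ebf1 (-0.36) and Pou2af1 (0.05) did not pass. With the 24 h arrays alone, 3 of the 17 mature B cell genes were called.

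Some components of B cell receptor signaling fell, while most members of that list did not pass. Of 25 measured members 9 fell, against 2.36% of all genes, none rose and 16 did not pass, and the median difference was -0.69. Ptpn6, the tyrosine phosphatase SHP-1, had 909 to 1857 with a median of 1290.2 in FxE HA, against 20616, 20870.5, 21921 and 19051 in FxE Ctrl, and was 15.3-fold lower (-3.93 ± 0.20, adjusted p = 1.44e-05). No treated array came near a control array. Lat2, a membrane adaptor of B cells, had 785 to 1793 with a median of 1343 in FxE HA, against 8288, 10066, 13045 and 8009 in FxE Ctrl, 7.73-fold lower (-2.95 ± 0.27, adjusted p = 5.43e-04). The calcium-responsive factor Nfatc1 (-1.33 ± 0.20, adjusted p = 0.00638) and Csk, the kinase that restrains Src family kinases (-1.18 ± 0.18, adjusted p = 0.00783), fell too. The remaining members that fell, named after their values were seen, include the kinase Btk (-1.05 ± 0.18, adjusted p = 0.0134), its substrate Plcg2 (-1.34 ± 0.21, adjusted p = 0.00862), the exchange factor Vav1 (-1.13 ± 0.20, adjusted p = 0.0141) and Prkcd (-0.98 ± 0.19, adjusted p = 0.0234), each about 2-fold lower. Of these only Plcg2 kept its call without each array in turn. Syk, the kinase that binds the phosphorylated receptor, did not pass between arms. Without FxE Ctrl 2 the list held 5 called genes, and 2 with the 24 h arrays alone. Among 35 Ig heavy chain probe sets 5 fell, against 2.19% of all probe sets. They were those of Ighd (-1.60, adjusted p = 0.0091), Ighg3 (-1.60 and -1.14) and Ighv14-2 (-2.69 and -2.53), named after their values were seen. Of 27 Ig kappa probe sets none was called, with summed kappa signals of 138029 to 204078 in FxE HA and 190359 to 224889 in FxE Ctrl.

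Genes of V(D)J recombination changed in a mixed way. Of 7 measured members 2 rose and 1 fell, against 1.29% and 2.36% of all genes. Rag1 had 14799 to 18540.4 with a median of 15696 in FxE HA, against 4034, 4193, 1271 and 2959 in FxE Ctrl, and was 5.53-fold higher (2.47 ± 0.31, adjusted p = 0.00282). The treated arrays were close together and all above the controls. Rag2, its partner subunit in the recombinase, did not pass, with 111 to 502 with a median of 307 in FxE HA, against 325, 285, 57.2 and 177 in FxE Ctrl (0.48 ± 0.37, adjusted p = 0.61). Xrcc6, which encodes the end-joining protein Ku70, had 9651 to 24706 with a median of 13338 in FxE HA, against 3332, 3483, 3222 and 3814 in FxE Ctrl, 4.46-fold higher (2.16 ± 0.23, adjusted p = 0.00116). Prkdc, the catalytic subunit of the kinase that Ku70 recruits, fell (-1.12 ± 0.20, adjusted p = 0.0146), a call lost without FxE Ctrl 1 or FxE Ctrl 2. Dntt, which adds untemplated bases at junctions, had 64.7 to 995 in FxE HA and 71.8 to 279.9 in FxE Ctrl and did not pass (1.24 ± 0.54, adjusted p = 0.315).

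Of the 13 measured genes of pro-B and pre-B cells, 2 were higher in FxE HA and 1 was lower, with a median difference of 0.55. Of all genes 1.29% rose and 2.36% fell. Il7r, the receptor for interleukin 7, had 1540.3 and 2350 on the 48 h and 381, 374, 324 and 418 on the 24 h FxE HA arrays, against 384 and 420.3 on the 48 h and 219.7 and 192 on the 24 h FxE Ctrl arrays. It was higher in FxE HA (1.45 ± 0.29, adjusted p = 0.0245) and higher at 48 h (1.76 ± 0.29, adjusted p = 0.017). Its call between arms was lost without FxE HA 4, FxE HA 5, FxE Ctrl 2, FxE Ctrl 3 or FxE Ctrl 4, and its call for time without FxE HA 6. Cd93, a surface marker of immature B cells, rose (0.91 ± 0.20, adjusted p = 0.0424), and Irf8, a transcription factor of early and mature B cells, fell (-1.52 ± 0.17, adjusted p = 0.00139). The surrogate light chain genes did not pass: Vpreb1 had 91.3 to 282 in FxE HA and 85.7 to 573 in FxE Ctrl, and Igll1 had 482 to 1098 in FxE HA and 805 to 1133 in FxE Ctrl. Lef1, a transcription factor of pro-B cells, differed between its probe sets. The one shown did not pass (1.14 ± 0.34, adjusted p = 0.125), and the second rose (2.25 ± 0.22, adjusted p = 8.56e-04). The arms of the second overlapped, with 533 to 3550 in FxE HA and 87.6 to 1079 in FxE Ctrl. It was also higher at 48 h, by more than between arms (2.75 ± 0.22, adjusted p = 0.00177).

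The genes that the study names as higher or lower after receptor loss come from its comparison of receptor-deleted with control cells, other samples of this series. The study also describes some of them in herbimycin-treated cells, and this list was written with earlier results of these data known, so it gets no test. Of all genes 1.29% rose and 2.36% fell. Of 22 measured genes named as higher 4 rose and none fell (median 0.62): Prdm1, Xrcc6, Rag1 and Il7r. Prdm1, which encodes the repressor Blimp-1, had 1098 to 2344 with a median of 1796 in FxE HA, against 484, 642, 397 and 360.1 in FxE Ctrl, 3.3-fold higher (1.72 ± 0.17, adjusted p = 8.56e-04). Jun (1.06 ± 0.28, adjusted p = 0.0864) and Sox4 (0.42 ± 0.22, adjusted p = 0.41), both transcription factors, did not pass. Of 24 named as lower 11 fell and none rose (median -1.10), or 7 without FxE Ctrl 1 or FxE Ctrl 2. Besides those above they include the integrin subunit Itgb7 (-1.77 ± 0.22, adjusted p = 0.00299), the inhibitory receptors Pirb (-1.31 ± 0.20, adjusted p = 0.00734) and Fcgr2b (-1.07 ± 0.20, adjusted p = 0.0197), and the phosphodiesterase Pde7a (-1.25 ± 0.21, adjusted p = 0.0125). Egr1, an immediate early factor downstream of the receptor, had 374 to 1165 in FxE HA and 1444 to 2284 in FxE Ctrl and missed the threshold (-1.42 ± 0.33, adjusted p = 0.052).

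Immediate early and NF-kB genes fell in part, beside 2.36% of all genes that fell and 1.29% that rose. Of 20 immediate early genes 4 fell and none rose: Dusp2, a phosphatase of MAP kinases (-2.02 ± 0.25, adjusted p = 0.00295), Egr2 (-1.39 ± 0.19, adjusted p = 0.00444), Ier2 (-1.39 ± 0.26, adjusted p = 0.0203) and Zfp36, which destabilizes cytokine mRNAs (-0.88 ± 0.17, adjusted p = 0.0238). Dusp2 had 988 to 2051 with a median of 1844 in FxE HA, against 8690, 9298, 4215 and 4334 in FxE Ctrl. Without FxE Ctrl 1, FxE Ctrl 2 or FxE Ctrl 3 the list held 2 called genes. Of 18 NF-kB genes 4 fell and 1 rose. Cd83 and Ltb are described above, and Traf6, an adaptor upstream of NF-kB, rose (1.11 ± 0.25, adjusted p = 0.0424), a call lost when any of 9 arrays was left out. Nfkbia, the inhibitor that NF-kB induces, had 1345 to 1692 in FxE HA and 2058 to 3860 in FxE Ctrl (-1.02 ± 0.21, adjusted p = 0.0283), and Bcl3, a nuclear partner of NF-kB, had 126 to 408 in FxE HA and 242 to 2447 in FxE Ctrl with overlapping arms (-2.44 ± 0.53, adjusted p = 0.0395). Both of these calls were lost without several single arrays.

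FoxO and interferon targets went both ways, beside 1.29% of all genes that rose and 2.36% that fell. Of 17 FoxO targets 3 rose and 2 fell. Gadd45a, a growth arrest and DNA damage response gene, had 7481 and 6845 on the 48 h and 4886, 5204, 5106 and 5226 on the 24 h FxE HA arrays, against 1524 and 1568 on the 48 h and 1491 and 1492 on the 24 h FxE Ctrl arrays. The control arrays lay within a narrow band and every treated array was above it (3.9-fold, 1.96 ± 0.16, adjusted p = 2.55e-04). Rag1 and Il7r were the others that rose, and Bcl6, a repressor of germinal center B cells, fell (-1.35 ± 0.24, adjusted p = 0.0148) while being higher at 48 h (1.27 ± 0.24, adjusted p = 0.0256). The call of Bcl6 for time was lost when any of 6 arrays was left out. Of 21 interferon targets 2 rose and 4 fell. Socs1, an inhibitor of JAK kinases, had 1246 to 2756 with a median of 2293 in FxE HA, against 914, 550, 394 and 663 in FxE Ctrl (3.2-fold higher, 1.68 ± 0.23, adjusted p = 0.00465). Ifit2 was at the floor of 20 in 3 of 4 FxE Ctrl arrays (20, 20, 35.0 and 20) and 83.7 to 557 in FxE HA, so its difference depends on the floor and its call was lost at a floor of 100. Tap1, a peptide transporter for MHC class I (-1.52 ± 0.18, adjusted p = 0.00199), and the immunoproteasome subunit Psmb8 (-1.18 ± 0.17, adjusted p = 0.0053) fell.

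**Figure D2:**
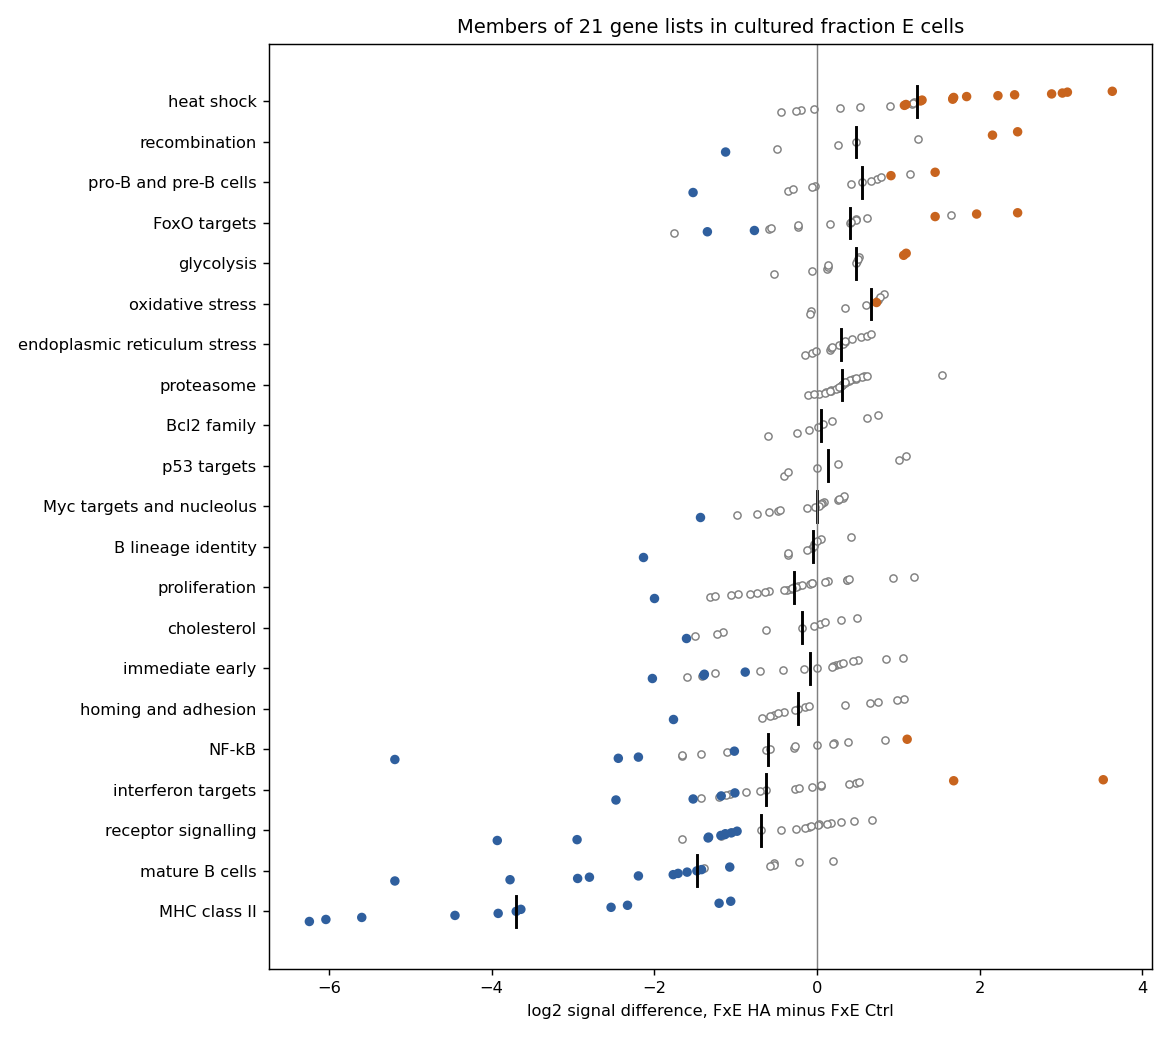
Log2 signal differences, FxE HA minus FxE Ctrl, of the members of 21 gene lists, with 1 point per gene, filled orange where the gene rose and blue where it fell, and a bar at each list's median. Heat shock genes (14 of 24 risen, median 1.23) stand at the upper end and MHC class II genes (11 of 11 fallen, median -3.70) at the lower end, while most lists straddle 0.

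Cell cycle and most metabolic lists held few calls. Of all genes 1.29% rose and 2.36% fell, so a single call says little about a list. Of 27 proliferation genes 1 fell, Aurkb, a mitotic kinase with 125 to 204 in FxE HA and 263 to 988 in FxE Ctrl (-2.01 ± 0.34, adjusted p = 0.0115, lost without FxE Ctrl 1), and the list's median was -0.29. None of 8 G1 regulators and none of 28 proteasome genes was called. Of 11 glycolysis genes 2 rose, Tpi1 (1.06 ± 0.19, adjusted p = 0.0147) and Pfkp (1.10 ± 0.22, adjusted p = 0.0245). Single genes fell in the lists of 16 Myc and nucleolus genes (Cad), 11 cholesterol genes (Idi1, -1.61 ± 0.26, adjusted p = 0.00972), 11 lysosome genes (Ctsh, a cathepsin, -1.96 ± 0.22, adjusted p = 0.00158) and 15 homing and adhesion genes (Itgb7). The other genes with the largest rises were Ptgr1, a prostaglandin reductase (2.70 ± 0.37, adjusted p = 0.00445), Maged1 (2.49 ± 0.29, adjusted p = 0.0021) and Prm1, a protamine gene (2.38 ± 0.34, adjusted p = 0.00603), and the other large fall was BC147527, with 20 to 62.3 in FxE HA and 568, 710.2, 667 and 548 in FxE Ctrl. Of 7 erythroid markers Car2, a carbonic anhydrase, rose. It had 10897 to 32747 with a median of 11869.9 in FxE HA, against 2347, 2822, 2646 and 6562 in FxE Ctrl (2.21 ± 0.34, adjusted p = 0.00806), with the highest value of each arm on FxE HA 6 and FxE Ctrl 4. The summed signal of the list was 14444 to 43558 in FxE HA and 6985 to 16077 in FxE Ctrl, most of it Car2. Hba-a1 (alpha globin) and Slc4a1 (the erythrocyte anion exchanger, 405 to 912 in FxE HA and 470 to 856 in FxE Ctrl) did not pass. No marker of T cells, NK cells, mast cells, megakaryocytes or stroma was called. These lists are short, so the lack of calls does not show that the arms held such cells alike. Their median differences were -0.40, 1.14, -0.08, 0.08 and 0.18 in that order. The 3 megakaryocyte markers summed to 453 to 1115 in FxE HA and 326 to 338 in FxE Ctrl.

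Signals also differed with culture time. Taken over both arms, 398 probe sets differed between 48 h and 24 h, 218 higher at 48 h (2.19%) and 180 lower (1.8%), and by gene 152 rose (2.05%) and 154 fell (2.08%). The times did not overlap in 337 of the 398. All probe sets together were shifted by a median of 0.20 toward 48 h, the 48 h arrays having the higher medians (400.7 to 506.3, against 345.9 to 444.4 at 24 h), and quantile normalization, which left a shift of 0.01, turned the split to 160 higher and 208 lower. The count fell below 398 by more than 1.5-fold when any single array other than FxE HA 5 was left out, to between 70 without FxE HA 6 and 256 without FxE HA 3. Of 47 genes of the lists or of the rule called for time, 10 kept that call without each array in turn, namely Cd79a, Igha, Mapk7, Myb, Patj, Pdia4, Psmc6, Sdc4, Tsc22d3 and Zfp62. Whether the 48 h cultures came from the same sorts as the 24 h ones is not given in the sources used here, so time and preparation cannot be told apart. Within FxE Ctrl alone 6 probe sets were called, and within FxE HA alone 40.

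Genes higher at 48 h were of several kinds. Lipa, a lysosomal lipase, had 1846 and 2385 at 48 h and 239, 427, 183 and 698 at 24 h in FxE HA, and 1188 and 1660 at 48 h and 290.5 and 89.4 at 24 h in FxE Ctrl. All 48 h arrays were above all 24 h arrays (2.84 ± 0.45, adjusted p = 0.0163, 7.18-fold higher). Igha had 3964 and 3891 at 48 h and 1432, 1505, 1129 and 856 at 24 h in FxE HA, and 4504 and 6101 at 48 h and 1005 and 886 at 24 h in FxE Ctrl (2.04 ± 0.24, adjusted p = 0.00558), and Jchain, which joins IgA and IgM polymers, was higher as well (1.51 ± 0.23, adjusted p = 0.0142). The globin gene Hba-a1 had 8519.7 and 8863 at 48 h and 1097, 1129, 2162 and 4754 at 24 h in FxE HA, and 7976 and 7602 at 48 h and 2743 and 3005 at 24 h in FxE Ctrl. It was higher at 48 h on every array (1.88 ± 0.41, adjusted p = 0.0415), as were Hbb-b2, another globin gene (2.24 ± 0.42, adjusted p = 0.0256), Tsc22d3, a glucocorticoid-induced gene (2.05 ± 0.28, adjusted p = 0.0091), the DNA repair gene Nbn (2.59 ± 0.36, adjusted p = 0.0102) and Zfp62 (2.08 ± 0.28, adjusted p = 0.0091). Globin RNA belongs to erythroid cells, of whose 7 measured markers only Hba-a1 rose with time, and its part in other differences with time was not tested. Myb, a transcription factor of progenitors, had 3754 and 2892 at 48 h and 927, 747, 533 and 928 at 24 h in FxE HA, and 2061 and 1352 at 48 h and 653 and 651 at 24 h in FxE Ctrl (1.78 ± 0.25, adjusted p = 0.0105). Of 28 proteasome genes 4 rose and 1 fell with time, against 2.05% and 2.08% of all genes.

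Genes lower at 48 h included the receptor component Cd79a. It had 8538 and 8273 at 48 h and 26453, 30042, 22284 and 27827 at 24 h in FxE HA, and 8809 and 6489 at 48 h and 29568 and 27941 at 24 h in FxE Ctrl. The 4 late arrays formed a group far below the 6 early ones, in both arms alike (-1.77 ± 0.17, adjusted p = 0.00295 for time, adjusted p = 0.999 for herbimycin A). Sdc4, a syndecan, followed the same pattern (-2.23 ± 0.18, adjusted p = 0.00177), with 1181 and 832 at 48 h and 3756, 4319.6, 3789 and 4466 at 24 h in FxE HA and 919 and 1016 at 48 h and 5641 and 5154 at 24 h in FxE Ctrl. Patj was at the floor on all 4 late arrays and had 115, 142, 247 and 219.9 at 24 h in FxE HA and 142 and 124 at 24 h in FxE Ctrl, so the size of its difference depends on the floor. Mapk7 (-2.48 ± 0.34, adjusted p = 0.0102), Snd1 (-2.50 ± 0.52, adjusted p = 0.033), Capn1 (-2.28 ± 0.34, adjusted p = 0.0142) and Tbcel (-2.18 ± 0.36, adjusted p = 0.0183) were the other large falls, and the endoplasmic reticulum chaperone Pdia4 fell as well (-1.90 ± 0.24, adjusted p = 0.00709). Myeloid markers had a median difference of -1.06 with time, with 0 of 14 called, and their part in these falls was not tested.

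**Figure D3:**
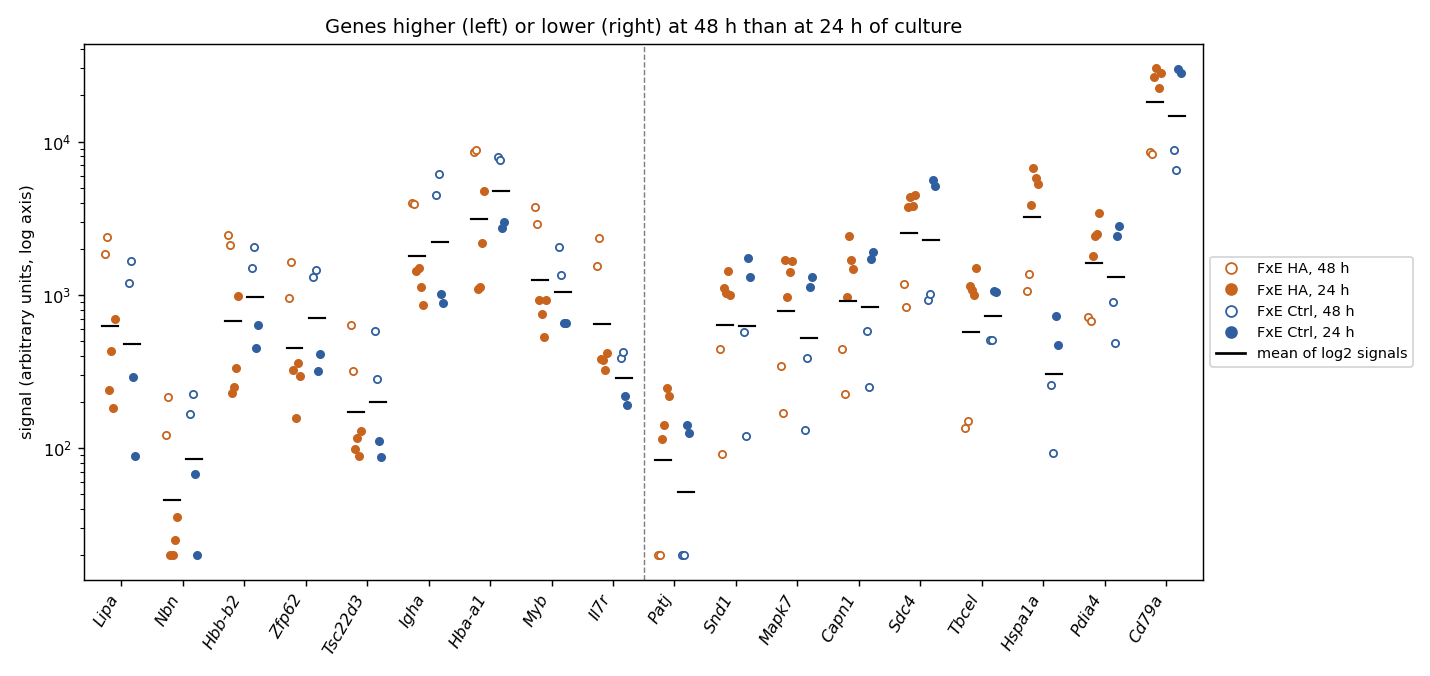
Signals on a log axis, in arbitrary units, of 9 genes higher and 9 genes lower at 48 h than at 24 h, with 1 point per array, FxE HA (orange) left of FxE Ctrl (blue), open points at 48 h and filled at 24 h, and bars at the mean of log2 signals of an arm. For Cd79a the late arrays lay at 8538 and 8273 (FxE HA) and 8809 and 6489 (FxE Ctrl), below all early arrays.

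The herbimycin A difference was not shown to depend on time. The contrast of the difference at 48 h with that at 24 h gave 0 called probe sets by limma and 478 at an unadjusted p under 0.05, with 16 called at a floor of 100. Taken alone with the pooled spread, the 48 h difference gave 92 called probe sets and the 24 h difference 115, and 70 and 108 of the 336 were among them. H2-Eb1 differed by -5.67 at 48 h and -5.54 at 24 h, and Hsph1 by 2.60 and 3.09. Hspa1b (2.14 at 48 h, 4.75 at 24 h) and Fcer2a (-4.48 at 48 h, -1.53 at 24 h) were farther apart and did not pass this contrast. Both arm and time were called in 33 probe sets, 8 higher for both, 14 lower for both and 11 in opposite directions.

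**Figure D4:**
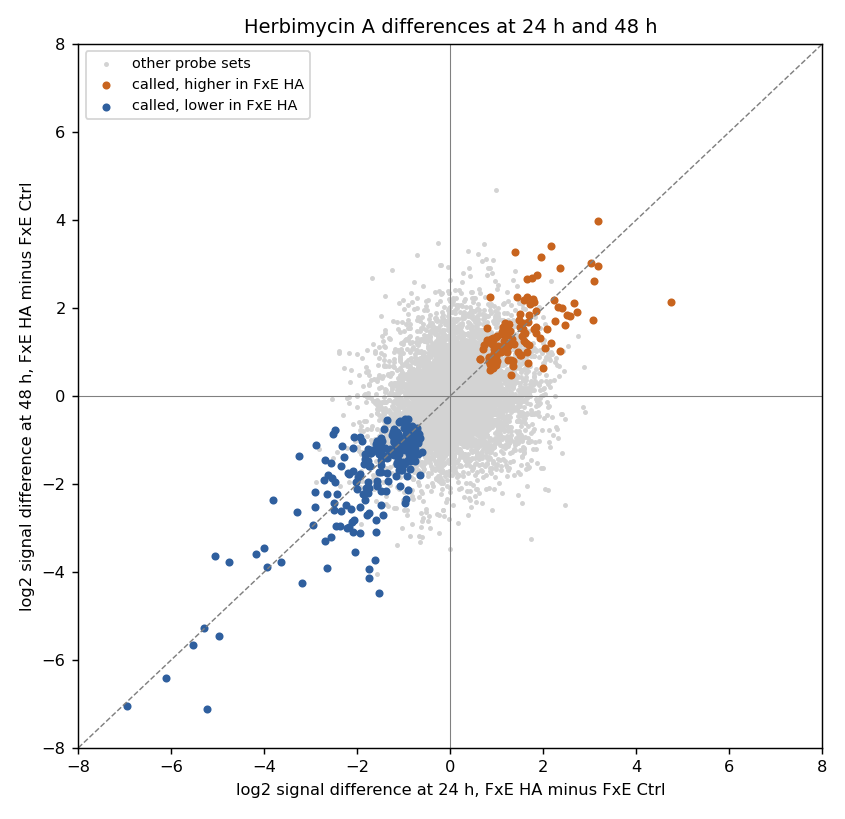
Log2 signal differences, FxE HA minus FxE Ctrl, at 48 h (vertical axis) against those at 24 h (horizontal axis) for 9977 probe sets, with the 118 called higher over both times in orange, the 218 called lower in blue, the rest in grey, and a dashed line of equality. All 336 called probe sets lie in the quadrants of equal sign, which calling them over both times on the same arrays favors.

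Fresh fraction D and fraction E cells of Balb/c mice, 3 arrays each, gave a scale for stage. Their RNA was amplified in 2 rounds, unlike that of the cultured cells. FxD differed from FxE at 174 probe sets that were higher (1.74%) and 125 that were lower (1.25%). Of the 125 lower in FxD, 51 fell in FxE HA (40.8%, against 2.19% of all probe sets) and none rose, with a median difference of -0.97. Without all H2 genes, of class II or not, Cd74 and Ciita, 44 of 118 fell, with a median of -0.87. Of the 174 higher in FxD, 17 rose (9.77%, against 1.18% of all probe sets) and 1 (Aurkb) fell. Their median difference was 0.00, against 0.07 for all probe sets. In 151 of them outside the proliferation list 17 rose (11.3%) and the median was 0.21, and in the 23 of that list 1 fell and the median was -0.29. Cd83 (-4.44), H2-Eb1 (-2.65) and Ptpn6 (-2.79) were lower in FxD, and Rag1 (6.08) and Xrcc6 (3.39) were higher. Vpreb1 (3.93) and Rag2 (5.50), also higher in FxD, did not pass in FxE HA.

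The same inhibitor had been given for 1 d to IL-7 expanded HEL-Ig/Rag2-GFP cells, of which IgM+ GFP+ cells (GFPpos, 3 arrays) were sorted from treated and IgM+ GFP- cells (GFPneg, 3 arrays) from untreated cultures. No arrays are shared with fraction E cells. Of the 118 probe sets higher in FxE HA, 34 were also higher in GFPpos than in GFPneg (28.8%, and 24.8% of the 137 higher there, which are 1.37% of all probe sets), and of the 218 lower, 30 were also lower (13.8%, and 24.8% of the 121 lower there, 1.21% of all). The difference between the 2 effects was called at 69 probe sets, 35 higher in fraction E cells (0.351%) and 34 lower (0.341%). Cell source, transgenes, culture and sort differ between these experiments along with the hours, and with the 24 h fraction E arrays alone 36 were called. Heat shock genes were not shown to differ between them, with 0 of 24 called, but with so few calls over all probe sets this does not show likeness. Of these genes 14 rose in fraction E and 7 in HEL-Ig cells, with medians of 1.23 and 0.82. Hsph1 rose by 2.88 ± 0.22 in fraction E and 3.01 ± 0.19 in HEL-Ig cells (difference -0.13 ± 0.31), and Hspa8 by 2.22 ± 0.22 and 2.03 ± 0.22 (difference 0.19 ± 0.33). Others lay farther apart, such as Hspa4l (8.09-fold higher in fraction E and 1.83-fold in HEL-Ig cells), Stip1 (3.58-fold and 1.18-fold) and, the other way, Dnaja1 (2.41-fold and 3.59-fold). Of the 11 MHC class II genes 5 fell in GFPpos, with a median of -2.10 beside -3.70 in fraction E cells, and the difference between the effects was called for H2-Oa (-2.33 ± 0.20 and -0.51 ± 0.21, difference -1.82 ± 0.30, adjusted p = 0.0107). Cd72 fell farther in fraction E cells (-3.77 ± 0.20 and -1.01 ± 0.25, difference -2.77 ± 0.31, adjusted p = 8.97e-04). Irf4, which promotes light chain rearrangement, did not pass in fraction E (-0.06 ± 0.18) and was higher in GFPpos (2.03 ± 0.16, difference -2.09 ± 0.26, adjusted p = 0.00178). Sox4 (0.42 ± 0.22 and 3.00 ± 0.26, difference -2.58 ± 0.34, adjusted p = 0.00382) and Dntt (difference -4.48 ± 0.91, adjusted p = 0.0425) differed in the same direction. Car2 (2.21 ± 0.34 and -1.12 ± 0.24, difference 3.33 ± 0.49, adjusted p = 0.00757) and Atf5, a stress-related transcription factor (2.23 ± 0.30 and -0.60 ± 0.21, difference 2.83 ± 0.42, adjusted p = 0.00848), differed the other way. Rag1 differed by 2.47 ± 0.31 and 7.14 ± 0.21 and Rag2 by 0.48 ± 0.37 and 6.28 ± 0.48. But GFPpos cells were selected by a Rag2 reporter, so these differences describe the sort as well. They are given without a p-value, though both count among the 69.

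Loss of the receptor itself was measured in cells with a floxed B1-8 heavy chain and the 3-83 kappa light chain, B1-8h/3-83(kappa) in the labels and B1-8f/3-83κ in the study, cultured with interferon αβ for 2 d, as Mx-Cre cells sorted for low IgM (Cre-Mlo, 4 arrays) against cells without Cre sorted for high IgM (Ctrl-Mhi, 4 arrays). Of the probe sets higher in FxE HA, 33 were higher in Cre-Mlo (28%, and 9.38% of the 352 higher there, which are 3.53% of all probe sets), and of those lower, 86 were lower (39.4%, and 24.2% of the 356 lower there, 3.57% of all). The effects differed at 245 probe sets, 95 higher with herbimycin A in fraction E cells (0.952%) and 150 lower (1.5%). The heat shock list held 11 of these differences. Hsph1 differed by 2.88 ± 0.22 with herbimycin A and 0.07 ± 0.21 with receptor loss (difference 2.81 ± 0.30, adjusted p = 7.01e-05), and Hspe1 by 1.68 ± 0.16 and -0.26 ± 0.16 (difference 1.94 ± 0.21, adjusted p = 8.58e-05). Receptor loss itself was accompanied by rises of Hspa1b and Dnajb6 and a fall of Hspb1 among the 24 heat shock genes. Hspa1b rose in both (3.63 ± 0.59 with herbimycin A and 1.59 ± 0.27, adjusted p = 0.0129 with receptor loss), and the difference was not called (2.04 ± 0.71, adjusted p = 0.172). Dnajb6, a cochaperone, was higher in Cre-Mlo (0.54 ± 0.11, adjusted p = 0.0284) and did not pass in FxE HA (-0.04 ± 0.22), and Hspb1 was lower (-2.33 ± 0.37, adjusted p = 0.0106). MHC class II genes fell in both, in 11 and 10 of 11 genes, but 8 of them differed in size: H2-Eb1 differed by -5.60 ± 0.17 with herbimycin A and -2.58 ± 0.31 with receptor loss (difference -3.02 ± 0.34, adjusted p = 9.26e-05). Ms4a1 fell less with herbimycin A (-1.42 ± 0.17 and -4.75 ± 0.33, difference 3.33 ± 0.35, adjusted p = 6.76e-05), and Ptpn6, lower in both (-3.93 ± 0.20 and -4.10 ± 0.22), was not shown to differ (difference 0.17 ± 0.29, adjusted p = 0.849). Xrcc6, higher in both (2.16 ± 0.23 and 2.43 ± 0.29), was not shown to differ either (difference -0.28 ± 0.37, adjusted p = 0.789), while Rag1 rose less in fraction E cells (2.47 ± 0.31 and 4.06 ± 0.22, difference -1.59 ± 0.39, adjusted p = 0.0443). Nfkbia moved in opposite directions (-1.02 ± 0.21 and 0.98 ± 0.17, adjusted p of the difference = 4.21e-04). Cebpb, a bZIP transcription factor, did too (1.07 ± 0.20 and -3.11 ± 0.32, difference 4.17 ± 0.38, adjusted p = 1.12e-05). Cell source, transgenes, the earlier IL-7 culture of the B1-8f/3-83κ cells, the sort by IgM level, inhibitor and interferon cannot be told apart in these contrasts. The bcl-2 transgene was in the fraction E cells and Mx-Cre in Cre-Mlo only.

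**Figure D5:**
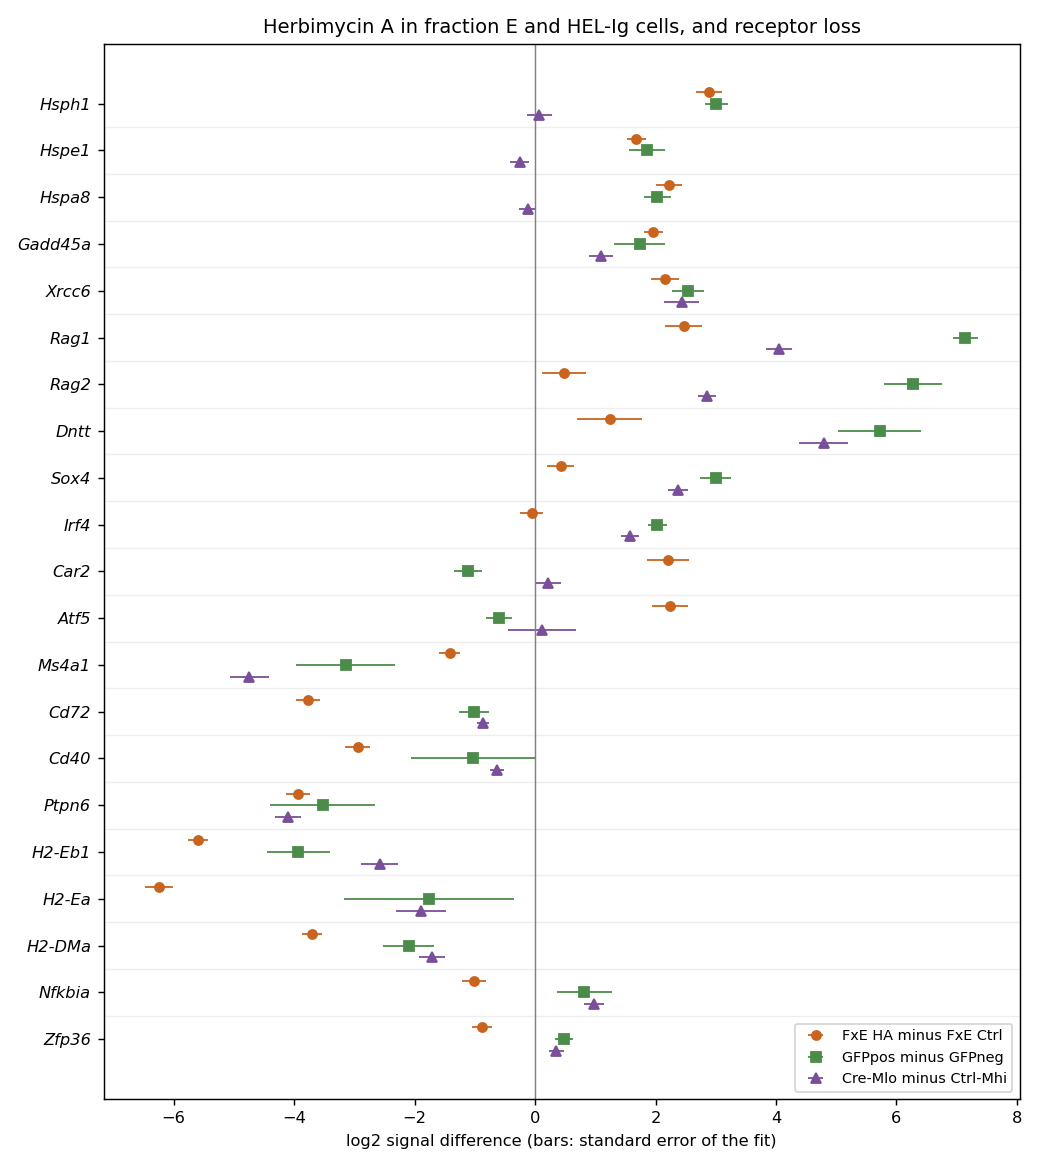
Log2 signal differences with standard errors of the fit for 21 genes, as FxE HA minus FxE Ctrl (orange circles), GFPpos minus GFPneg (green squares) and Cre-Mlo minus Ctrl-Mhi (purple triangles). Hsph1, Hspe1 and Hspa8 lie to the right with herbimycin A in both cell sources and near 0 with receptor loss, while Rag2, Dntt, Sox4 and Irf4 lie nearest 0 in fraction E cells.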

How the data were processed

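RNA from cells of mouse bone marrow was hybridized to Affymetrix U74Av2 arrays. The deposited values are signal intensities per probe set on a linear scale, which the authors summarized in Microarray Suite 5.0 after masking probes with the mask of the earlier array version and scaled per array to 1500 arbitrary units. Detection p-values were not used here, so a floor of 20 alone replaced the authors' filter, and dim signals are less reliable than the floor makes them look. Signals were raised to 20 and log2 transformed, and the 9977 probe sets entered limma's lmFit and eBayes (version 3.58.1, R version 4.3.3) with arm (FxE HA or FxE Ctrl) and hours as terms and two-sided Benjamini-Hochberg adjustment over all of them. Effects in other cells were set against this one as contrasts of contrasts. No 2 of the 10 arrays shared over 50% of their values. The platform annotation gave 8724 probe sets 1 gene, 346 several and 907 none, and a gene is shown by its brightest probe set.

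Named genes are the 10 largest rises and falls between arms and 6 each way between times among called probe sets whose samples do not overlap, up to 4 per list by adjusted p, 6 each way per contrast of contrasts, and genes the study names. Members, lists and this rule were chosen with earlier results of these data known, so lists are described by counts and medians without a test. Hours come from a figure legend and not from the sample labels. The fits were tested on simulated data. Alternatives were a floor of 100, quantile normalization, a mean signal of at least 200, robust eBayes with a trend, array weights, no hours term, each time alone, a replicate block, each array left out and the methods' t-test. Leaving out FxE HA 5 and FxE Ctrl 3 together was chosen after seeing the data. The number of arrays limits the precision.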

Additional observations from a re-analysis of the deposited data

Results flagged for a closer look

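In 8 of 134 groups of signals over 67 genes, 1 array stood apart from the rest of its arm by Dixon's criterion, which chance meets in about 1 in 20 groups. In FxE HA 5, Maged1 had 350.8 (506.6 to 610.8 on the other FxE HA arrays) and H2-Aa had 213.2 (1890.5 to 3690.3). In FxE HA 6, Prm1 had 2309.2 (6610.7 to 11817.8), Spib had 1084.8 (3749.0 to 5529.4) and Car2 had 32746.6 (10896.9 to 13165.0). Cd40 had 492.3 in FxE HA 3 (797.0 to 952.1). H2-Ab1 had 19235.4 in FxE Ctrl 4 (25378.2 to 25715.8 on the other FxE Ctrl arrays), and Ifit2 had 35.0 in FxE Ctrl 3, with the others at the floor of 20.

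Herbimycin A effects that differed between fraction E and HEL-Ig cells by limma's test of the difference were found for 14 named genes, as log2 values of the fraction E effect minus the HEL-Ig effect. Lower in fraction E cells were Dntt (-4.484), Cd72 (-2.766), Sox4 (-2.579), Wdr92 (-2.474), Irf4 (-2.09), Socs1 (-1.466) and Zfp36 (-1.365). Higher were H1f10 (3.642), Car2 (3.325), Adk (3.00), Atf5 (2.832), Pold2 (2.093), Krtap3-1 (1.856) and Txn1 (1.347). Rag1 and Rag2 entered the same fit and count among its 69 called probe sets, but they are left out of this list because GFPpos cells were sorted by a Rag2 reporter. Hours, cell source, transgenes, culture and sort cannot be told apart in these differences. The effects on Zfp36 had opposite signs, -0.88 ± 0.17 in fraction E and 0.48 ± 0.15 in HEL-Ig cells.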

How the results depend on the processing

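Under the alternatives, single genes were followed only where the main fit had called them, with Rag2, Dntt, Jun, Egr1 and Lef1 added between arms. None of these values reversed: of 2810 values over 202 gene results, 2090 kept direction and side of the threshold, 710 missed the threshold and 10 newly passed. Being chosen by their call makes a reversal unlikely for nearly all of them, and other named genes that did not pass were not followed. For FxE HA against FxE Ctrl (336 called), 538 were called at a mean of at least 200, 594 with robust eBayes, 104 with the 24 h arrays alone, 0 with the 48 h arrays alone (821 at an unadjusted p under 0.05), and 219 by the methods' t-test (76 higher, 143 lower; 180 also called by limma; 123 after Benjamini-Hochberg). Single arrays left out gave 186 to 323. A floor of 100 (498), quantile normalization (351), no hours term (245) and array weights (417) stayed within 1.5-fold. For 48 h against 24 h (398), a floor of 100 gave 739, a mean of at least 200 gave 733, robust eBayes 858, the fit without FxE HA 5 and FxE Ctrl 3 161, and single arrays left out 70 to 335. Quantile normalization gave 368, of which 43.5% were higher, against 54.8%. Within FxE HA (40) these settings gave 347 at a floor of 100, 80 after quantile normalization, 163 at a mean of at least 200 and 382 with robust eBayes, and within FxE Ctrl (6) 61 at a floor of 100, 37 with robust eBayes and 4 after quantile normalization. The time dependence of the effect (0) gave 16 at a floor of 100. The difference from HEL-Ig cells (69) gave 217 at a floor of 100, 112 after quantile normalization, 152 at a mean of at least 200, 198 with robust eBayes and 36 with 24 h fraction E arrays. The difference from receptor loss (245) gave 416 at a floor of 100 and 376 with robust eBayes. The replicate block left 0 called (1028 at an unadjusted p under 0.05). Deviations of same-numbered arrays from the means of their arm and hours had correlations of -0.02, 0.05, 0.10 and -0.02, and those numbered 3 and 4 differ in hours. With 2 control arrays per time this check cannot settle whether arrays of the 2 arms were paired. Pairing in another order was not tested, such as FxE HA 5 with FxE Ctrl 3, which had the highest array medians (506.3 and 490.9). The main fit holds no term for pairing. Why these counts move was not tested, except that fewer arrays or probe sets entered where so stated. Dim probe sets, with 1.48% to 6.86% of values at the floor, limit what could be called.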
